A study of Sus scrofa with 24 samples.

Results

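The cilium and centrosome genes of day 30 pig embryos were examined in 45 genes, covered by 85 of the array's 43749 probes. Of these, 40 genes (77 probes) carry a symbol of a cilium or centrosome family: 14 CEP genes (centrosomal proteins), 10 DNAH genes (axonemal dynein heavy chains), 8 IFT genes (intraflagellar transport), 4 TEKT genes (tektins), 3 BBS genes (Bardet-Biedl syndrome proteins) and 1 DNAI gene (axonemal dynein intermediate chain). These 40 were taken by the start of their symbol, from families picked with earlier results of these data known. The other 5 genes (8 probes), GAS8, HOOK1, IQCD, TTC21A and TTC21B, were added partly because of their ratios in these arrays, so their values are given as a description, with no test. The array's annotation gave a single gene symbol to 18109 probes, which name 11902 genes.

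Sows were primiparous, with 1 earlier litter. Lactational oestrus was stimulated in them and was followed by either of 2 mating strategies, IS21FE and IS21SE, whose letters the labels do not spell out; control sows were named control only. RNA came from pools of 3 embryos of 1 sex from 1 sow, with 3 sows for IS21FE, 3 for IS21SE and 6 for control, which makes 24 pools. A two-colour array set a treated pool against a control pool of the same sex. The 4 groups were pools of female IS21FE embryos, of male IS21FE embryos, of female IS21SE embryos and of male IS21SE embryos. Each group had 3 biological replicates against control pools, and 2 arrays per replicate with the dyes exchanged. The labels do not say which female and male pools share a sow.

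A cilium is a hair-like extension of the cell built on a core of doublet microtubules, the axoneme, which grows from a centriole docked at the cell surface. Most embryonic cells carry a primary cilium, which does not beat and through which Hedgehog signals are read in limb and neural tube patterning, while motile cilia beat by means of axonemal dyneins. Intraflagellar transport carries building blocks along the axoneme, the BBSome sorts membrane proteins of the cilium, and centrosomal proteins build and duplicate the centrioles.

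All values below are log2 ratios. The files do not state whether a column gives Cy5 over Cy3 or Cy3 over Cy5. Arrays with control RNA in Cy5 were multiplied by -1 (turned), so that under Cy5 over Cy3 a ratio above 0 stands for more RNA in treated pools, and under Cy3 over Cy5 for less. Ratios are therefore called positive or negative. In whole embryos, fewer cells of a type and less RNA per cell cannot be told apart. An array gave values for 31722 to 39435 probes, and precision is limited by how many arrays there are. Across all genes, no gene passed an adjusted p of 0.05 in any of the 4 groups with the turn (limma). Without the turn, 5.88% of 9797 genes passed in female IS21FE pools and 3.81% of 9817 in female IS21SE pools, against 0% in male IS21FE and 0.0197% in male IS21SE pools. The arrays of a dye-swapped replicate correlated below 0 as deposited in 6 male replicates of 6 and in 1 female replicate of 6. For female pools, a gene-specific dye effect and columns that already ran as treated over control cannot be told apart, so the sign of a female ratio depends on the turn. Without it, 19 of 32 genes chosen by symbol had the other sign in female IS21FE pools and 22 of 35 in female IS21SE pools. In male pools the sign differed for 15 of 31 under IS21FE and for 17 of 33 under IS21SE. The text gives the turned value unless it says as deposited. Female arrays had SDs from 0.620 to 0.890, against 0.937 to 1.33 on male arrays, while the median absolute deviation, scaled to match an SD under a normal distribution, lay between 0.530 and 0.546 on all 24 arrays, so the arrays differed in their extreme values.

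How often a probe gave a value differed between the families. Blank values made up 6.36% of the possible values of IFT probes, 13.5% of CEP, 20% of BBS, 25% of TEKT, 38.4% of DNAH and 41.7% of the DNAI probe, against 11.9% for all annotated probes. All 24 arrays gave a value for 10 of 19 IFT probes, 12 of 29 CEP probes, 3 of 18 DNAH probes and 0 of 5 TEKT probes. The genes of transport and the centrosome were therefore measured more completely than the dyneins and tektins of motile cilia. DNAH8, an outer arm dynein heavy chain, had a value on 1 array and DNAH12, an inner arm chain, on 6, so neither could be tested. The filter that made values blank is not given in the sources used here, so a blank is not read as an absent transcript.

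**Figure D1:**
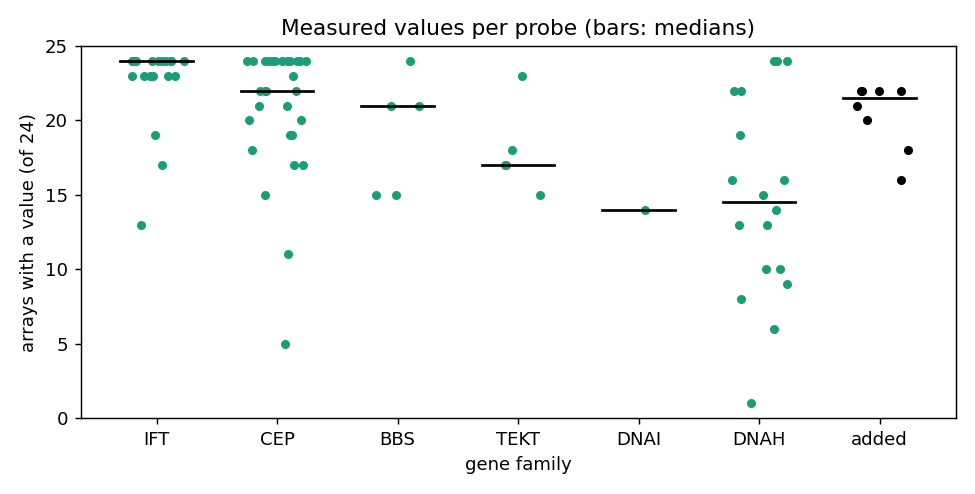
Each point is a probe, placed by gene family on the horizontal axis and by the number of arrays with a value, out of 24, on the vertical axis, and bars mark medians. The median was 24 arrays for IFT probes and 22 for CEP probes, but 14.5 for DNAH probes, and the fewest values, on 1 array, were those of DNAH8.

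The intraflagellar transport genes had mostly negative ratios in male IS21SE pools. There, 7 of 8 IFT genes had a negative mean ratio, with a median of -0.25, against -0.0072 for all 10132 genes tested. Of all genes tested, 5186 were negative. Of the 8, 5 were negative at an unadjusted p under 0.05 (limma), where 5.53% of all genes tested were negative and 6.29% positive at that level. None passed the adjustment over all genes, with 0.2215 as the lowest adjusted p. The count at that unadjusted level was 1 in a fit to this group alone, 2 with the replicate number as a block, 0 with no array turned, and 3, 1 and 2 without replicate 1, 2 or 3, while the negative genes numbered 8, 6 and 7 without these replicates.

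IFT74, which with IFT81 binds tubulin in the transport particle called IFT-B, had -0.50, -0.41 and -0.58 in the 3 male IS21SE replicates. All 3 replicates lay below 0, with a mean of -0.50 ± 0.09 (SD, n = 3) and an adjusted p of 0.2215 (limma). Its single probe was negative on all 6 arrays, with a mean of -0.53 on arrays with treated RNA in Cy5 and -0.46 with control RNA in Cy5.

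The other IFT-B genes lay on the same side in male IS21SE pools. IFT88, needed for cilium assembly in mice, had -0.08, -0.46 and -0.44, a mean of -0.33 ± 0.21 (SD, n = 3). IFT81 had -0.58, -0.24 and -0.09, a mean of -0.30 ± 0.25 (SD, n = 3). IFT80, a structural subunit, had -0.21, -0.33 and -0.26, a mean of -0.27 ± 0.06 (SD, n = 3). Every replicate of these 3 genes was negative, and IFT80 spread least. IFT57, also called Hippi, had -0.35, -0.16 and -0.17, a mean of -0.23 ± 0.11 (SD, n = 3). The adjusted p of IFT57, IFT80, IFT81 and IFT88 lay between 0.3636 and 0.3994 (limma), and each had negative means in both dye orientations. IFT52, which holds the core of IFT-B together, had -0.19, -0.30 and 0.13, a mean of -0.12 ± 0.22 (SD, n = 3), and its replicates lay on both sides of 0.

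The IFT-A genes lay on both sides of 0. IFT122 had 1.88, -0.31 and -0.43 in male IS21SE pools, and IFT140 had -0.05, -0.38 and 0.34. Replicate 1 alone gave IFT122 its positive mean of 0.38. Its 2 probes differed there, with -0.18 for the probe with values on 23 arrays and 1.62 for the probe with values on 13.

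In male IS21SE pools most single probes were negative too. Of 19 IFT probes, 17 were negative in male IS21SE pools, the positive ones being a probe of IFT52 with 0.93 and the sparse probe of IFT122. Over all genes, 5186 of 10132 were negative there, and the share over all probes was not counted. The IFT probes include 7 of IFT52 and 3 each of IFT57 and IFT80, so they are not separate genes. All 10 IFT probes with a value on every array were negative, from -0.50 to -0.06. In male IS21FE pools 15 of 19 IFT probes were negative, and 9 of the 10 with a value on every array, although the gene means there were 4 positive and 4 negative. Of these 10 probes, 4 were negative in female IS21FE pools and 4 in female IS21SE pools. IFT52, with 7 probes, ranged from -0.72 to 0.93 across them in male IS21SE pools, while its 4 probes with a value on all arrays ran from -0.19 to -0.06.

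**Figure D2:**
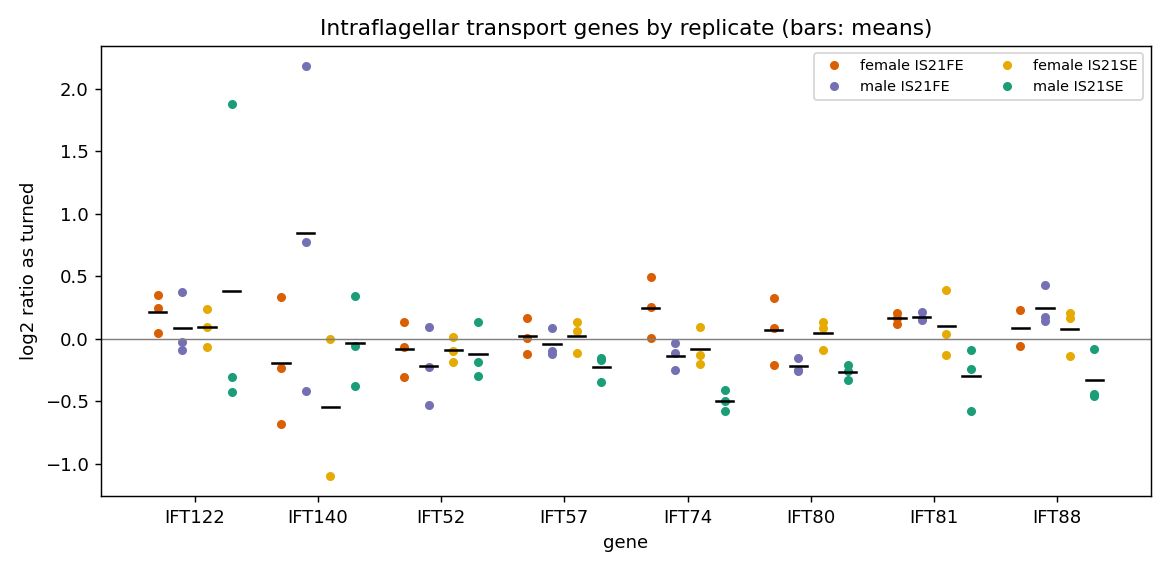
Log2 ratio (vertical axis) of the 8 IFT genes (horizontal axis) in each replicate (points) of the 4 groups, with group means as bars. In male IS21SE pools all replicates of IFT57, IFT74, IFT80, IFT81 and IFT88 lie below 0, while 1 replicate of IFT122 reaches 1.88 and 1 of IFT140 in male IS21FE pools reaches 2.18.

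With the turn, the median of the IFT genes was closer to 0 in the other groups. The median over the 8 genes was 0.08 in female IS21FE pools (6 positive, 2 negative), 0.02 in male IS21FE pools (4 and 4) and 0.03 in female IS21SE pools (5 and 3). The matching medians of all genes were 0.03, -0.01 and 0.02, with 5465 of 9797, 4614 of 9803 and 5332 of 9817 genes positive. With the most measured probe of each gene the male IS21FE median was -0.10, with 5 of 8 genes negative, and IFT140, with a single probe, averaged 0.84 there (-0.42, 2.18 and 0.77). As deposited, 2 IFT genes were positive and 6 negative in female IS21FE pools, and 4 and 4 in female IS21SE pools. The deposited medians were -0.15 in female IS21FE, -0.13 in male IS21FE, -0.03 in female IS21SE and -0.03 in male IS21SE pools. At an unadjusted p under 0.05 (limma) there were then 2 of 8 in female IS21FE and 4 of 8 in female IS21SE pools. Of all genes, 21.8% and 21.9% reached it there. In male IS21SE pools it was 0 of 8 IFT genes as deposited, against 12.3% of all genes. IFT81 had 0.21, 0.11 and 0.17 in female IS21FE pools and 0.21, 0.15 and 0.16 in male IS21FE pools, all positive, against -0.58 to -0.09 in male IS21SE pools. IFT80 had -0.15, -0.25 and -0.26 in male IS21FE pools, all negative, an average of -0.22 ± 0.06 (SD, n = 3) with an adjusted p of 0.784 (limma).

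Between the strategies in males, 3 IFT genes differed at an unadjusted p under 0.05, all with the IS21FE ratio above the IS21SE ratio. The difference, male IS21FE minus male IS21SE, was 0.58 ± 0.17 (SE) for IFT88, 0.47 ± 0.17 (SE) for IFT81 and 0.36 ± 0.15 (SE) for IFT74, with adjusted p from 0.4938 to 0.6261 (limma). At that level 3.5% of all 9410 genes tested had a positive difference. Replicates of IFT81 and IFT88 did not overlap between male IS21FE and male IS21SE pools, being positive in all 3 of the first and negative in all 3 of the second. Such opposite sides occurred for 3.45% of all genes. As deposited, IFT81 and IFT88 averaged -0.14 and -0.08 in male IS21FE pools, and -0.08 and 0.12 in male IS21SE pools. The median difference over the 8 genes was 0.27, against -0.02 over all genes.

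In female pools IFT74 depended on the turn. Turned, its replicates were 0.00, 0.49 and 0.25 in female IS21FE pools, a mean of 0.25 ± 0.25 (SD, n = 3), and -0.20, 0.09 and -0.13 in female IS21SE pools. Left as deposited, they were 0.39, 0.70 and 0.76 in female IS21FE pools, a mean of 0.62 with an adjusted p of 0.01433 (limma), and 0.36, 0.42 and 0.32 in female IS21SE pools, a mean of 0.36 with an adjusted p of 0.0755. The deposited value was positive on all 6 arrays of both female groups, whichever dye held the treated RNA. The deposited value in male IS21SE pools was positive on 3 of 6 arrays and changed sign with the dye. IFT57 as deposited was negative on all 6 female IS21SE arrays, with a mean of -0.33 and an adjusted p of 0.04624, and 0.02 with the turn. IFT88 as deposited was negative on all 5 measured female IS21FE arrays and all 6 female IS21SE arrays. Its deposited means were -0.44 and -0.39, with adjusted p of 0.1011 and 0.09206 (limma), against 0.09 and 0.08 with the turn. IFT80 in female IS21SE pools was -0.25 as deposited, with an adjusted p of 0.1772 (limma), and 0.04 with the turn.

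**Figure D3:**
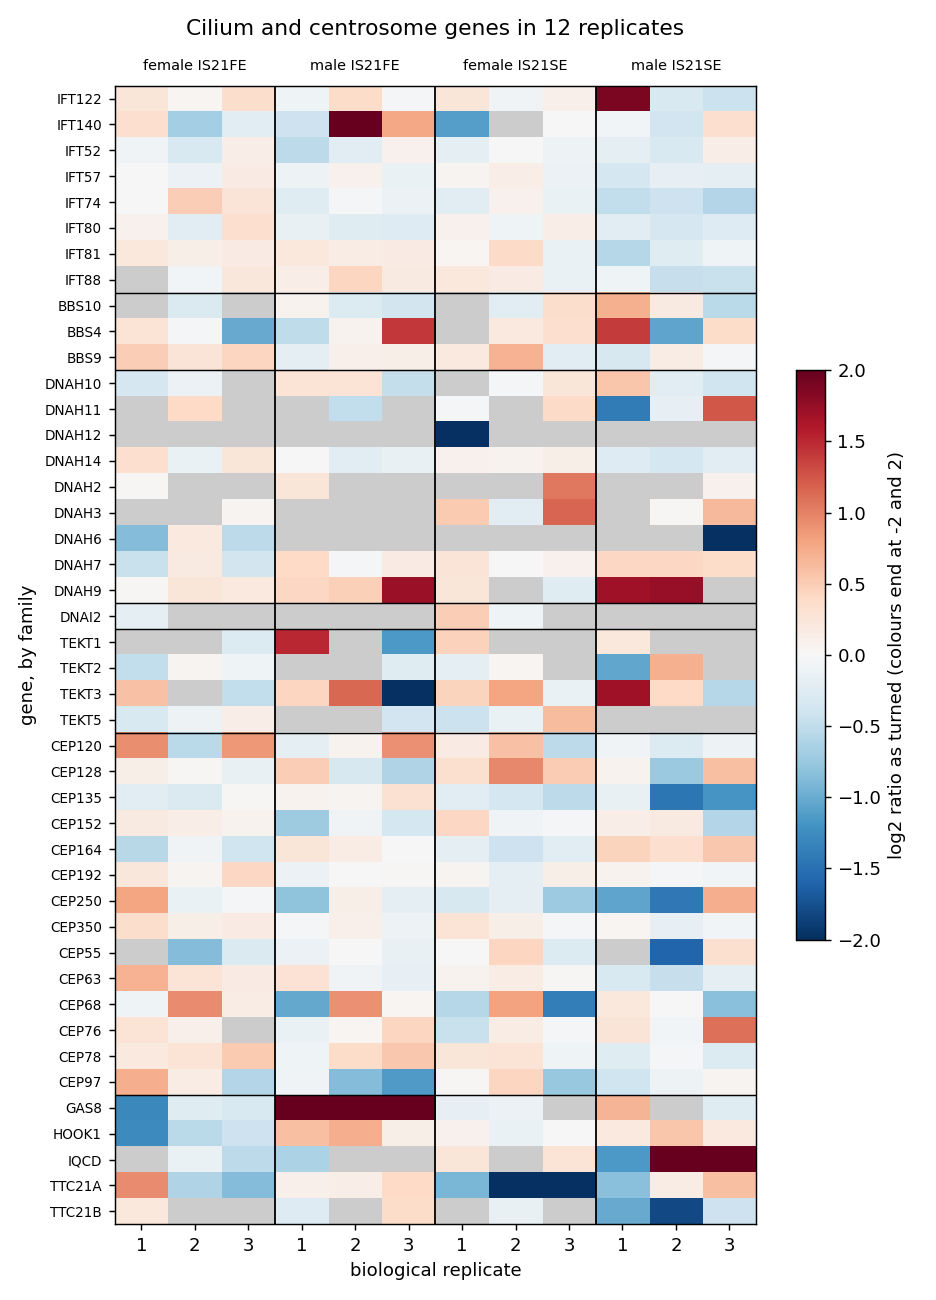
Colours give the log2 ratio as turned of the 44 genes with at least 1 replicate measured on both arrays (rows, by family) in 12 replicates (columns, by group), with colours ending at -2 and 2 and grey for replicates not measured on both arrays. IFT rows in male IS21SE pools are pale blue nearly throughout, GAS8 is dark red in all 3 male IS21FE replicates, and grey cells gather in the DNAH, DNAI and TEKT rows.

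The BBS genes showed little. BBS9, a subunit of the BBSome, had 0.49, 0.26 and 0.43 in female IS21FE pools, all positive, with a mean of 0.39 ± 0.12 (SD, n = 3) and an adjusted p of 0.5524 (limma). Its means there were 0.38 and 0.40 in the 2 dye orientations. In the other groups BBS9 averaged 0.01 in male IS21FE, 0.22 in female IS21SE and -0.06 in male IS21SE pools, with replicates on both sides of 0. BBS4, also a BBSome subunit, had 3 probes and a within-group SD of 0.92, which exceeds all its group means, from -0.25 in female IS21FE to 0.33 in male IS21FE pools. BBS10, a chaperonin-like protein of BBSome assembly, averaged -0.19 in male IS21FE, 0.07 in female IS21SE and 0.12 in male IS21SE pools, and a single female IS21FE replicate gave -0.29.

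The 6 dynein heavy chains tested in female IS21SE pools were all positive with the turn, with a median of 0.11 and 0 at an unadjusted p under 0.05 (limma), and 3 positive and 3 negative as deposited. Of all 9817 genes tested there, 5332 were positive with the turn. DNAH9, an outer arm chain of motile cilia, had the largest mean ratio of the genes chosen by symbol that were measured in at least 2 replicates of a group. It had 1.70 and 1.74 in the 2 measured male IS21SE replicates, a mean of 1.72 ± 0.02 (SD, n = 2) with an adjusted p of 0.2215 (limma). In male IS21FE pools it had 0.41, 0.48 and 1.72, a mean of 0.87 ± 0.74 (SD, n = 3) with an adjusted p of 0.4803. All measured male replicates were positive, and female pools averaged 0.16 in IS21FE and 0.0045 in IS21SE.

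The dye orientations of DNAH9 differed in male pools. Its male IS21SE arrays with treated RNA in Cy5 averaged 0.58 and those with control RNA in Cy5 averaged 2.68. In male IS21FE pools the averages were -0.0037 and 1.74. The male IS21SE replicates, with an SD of 0.02, therefore join arrays as far apart as -0.12 and 3.53, and a share of the ratio moves with the dye.

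DNAH7, an inner arm chain with 7 probes, had 0.41, 0.41 and 0.37 in male IS21SE pools, all positive, with a mean of 0.40 ± 0.03 (SD, n = 3) and an adjusted p of 0.3061 (limma). Only 4 of its probes gave a replicate value there. Averaged over probes, the single arrays of DNAH7 there ran from -0.46 to 1.30, with 3 positive and 3 negative. Its 2 probes with a value on every array gave 0.47 and 0.56 there, but 0.68 and -0.42 in female IS21SE pools. DNAH14, an axonemal chain, had -0.25, -0.35 and -0.21 in male IS21SE pools, all negative, with a mean of -0.27 ± 0.07 (SD, n = 3) and an adjusted p of 0.3636. In female IS21SE pools DNAH14 had 0.09, 0.07 and 0.12, against -0.35 to -0.21 in male IS21SE pools, without overlap. All replicates of these 2 groups lay on opposite sides of 0 for 5.05% of all genes. As deposited, DNAH14 averaged -0.02 in female and 0.01 in male IS21SE pools.

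The remaining dyneins and the tektins gave few complete replicates. DNAH2, DNAH6 and DNAH11 had 4, 4 and 7 of 12 replicates with both arrays, DNAH3 had 6 and DNAH10 had 10. DNAI2, an outer arm intermediate chain, had 3, with -0.19 in female IS21FE pools and 0.49 and -0.09 in female IS21SE pools. None of these 6 genes reached an unadjusted p under 0.05 in a group where it could be tested. TEKT1, TEKT2, TEKT3 and TEKT5 had 5, 8, 11 and 7 replicates. TEKT3 ran from -2.60 to 1.14 among male IS21FE replicates, and TEKT2, with 2 probes, gave -1.04 and 0.71 in male IS21SE pools. These spread too far to be placed on either side of 0 there. TEKT5 in female IS21FE pools averaged -0.09 ± 0.21 (SD, n = 3). As deposited it was -0.65 with an adjusted p of 0.09112 (limma), negative on all 6 arrays. TEKT3 in male IS21SE pools averaged 0.51. As deposited it was -1.04 with an adjusted p of 0.2199 (limma), negative on all 6 arrays.

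The centrosome genes were measured in all 12 replicates in 12 of 14 cases. Of the 14, 3 were positive and 11 negative in male IS21SE pools, with a median of -0.15, where 5186 of all 10132 genes were negative. CEP135, which helps to build the wall of the centriole, had -0.15, -1.44 and -1.18, all negative, with a mean of -0.92 ± 0.68 (SD, n = 3) and an adjusted p of 0.2215 (limma). Without replicate 1 its ratio was -1.31 with an adjusted p of 0.01764, so the call changed with that replicate left out. It averaged 0.14 ± 0.14 (SD, n = 3) in male IS21FE pools, with all replicates positive, against -0.92 in male IS21SE pools, and the difference, male IS21FE minus male IS21SE, was 1.06 ± 0.28 (SE) with an adjusted p of 0.4255. Arrays of both orientations were negative on average in male IS21SE pools, at -0.50 with treated RNA in Cy5 and -1.34 with control RNA in Cy5. In male IS21FE pools they averaged 0.58 with treated RNA in Cy5 and -0.29 with control RNA in Cy5. The deposited value was positive on all 6 male IS21FE arrays, so the sign of CEP135 there followed the dye.

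CEP63, which works with CEP152 in centriole duplication, had -0.31, -0.47 and -0.19 in male IS21SE pools, a mean of -0.32 ± 0.14 (SD, n = 3). It had 0.70, 0.28 and 0.17 in female IS21FE pools, a mean of 0.38 ± 0.28 (SD, n = 3). The male IS21SE replicates were all negative and the female IS21FE replicates all positive, with adjusted p of 0.3693 and 0.4832 (limma). CEP152, with 4 probes, had 0.18, 0.13 and 0.07 in female IS21FE pools, against -0.71, -0.07 and -0.35 in male IS21FE pools, and the groups did not overlap. Opposite sides in all replicates of these 2 groups occurred for 3.03% of all genes. The only CEP152 probe with a value on every array gave 0.16 in female and 0.13 in male IS21FE pools, with all male replicates positive. Its sparser probes gave -1.31, -0.22 and -0.11 in male IS21FE pools. As deposited, CEP152 was -0.16 in female IS21FE pools.

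CEP164, a protein of the distal appendages by which a centriole docks to the membrane, was the only CEP gene at an unadjusted p under 0.05 in 3 groups. It had -0.55, -0.07 and -0.40 in female IS21FE pools, -0.19, -0.41 and -0.22 in female IS21SE pools and 0.45, 0.34 and 0.54 in male IS21SE pools. The difference, female minus male, was -0.72 ± 0.15 (SE) under IS21SE, with an adjusted p of 0.4438 (limma), and -0.47 ± 0.15 (SE) under IS21FE, with an adjusted p of 0.7862. Female replicates were all negative and male replicates all positive under both strategies. Opposite sides in all replicates occurred for 5.05% of all genes under IS21SE and 3.03% under IS21FE.

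The 4 probes of CEP164 disagreed, however. For male IS21SE pools they gave -0.18, 0.33, 0.73 and 1.75, and the only probe with a value on all arrays was the negative one. With that probe alone the male IS21SE ratio was -0.18, so the sign of CEP164 there rests on the sparser probes. The same probe gave -0.16 in female IS21SE pools, on the same side as in male pools. Under IS21FE it gave -0.16 in female and 0.14 in male pools.

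Of the other CEP genes, CEP78, linked to centriole function and to retinal cilia in humans, had 0.20, 0.27 and 0.52 in female IS21FE pools, a mean of 0.33 ± 0.17 (SD, n = 3). As deposited it was -0.50 with an adjusted p of 0.02871 (limma) and negative on all 6 of those arrays, so its sign turned with the treatment of the columns. CEP192, which recruits the material around the centriole, had 0.22, 0.06 and 0.41 in female IS21FE pools, all positive, a mean of 0.23 ± 0.18 (SD, n = 3). CEP97, which holds back cilium formation together with CP110, had -0.07, -0.87 and -1.13 in male IS21FE pools, all negative, a mean of -0.69 ± 0.55 (SD, n = 3). CEP128, a protein of the subdistal appendages, had 0.32, 0.96 and 0.50 in female IS21SE pools, all positive, a mean of 0.60 ± 0.33 (SD, n = 3). The adjusted p of CEP78, CEP97, CEP128 and CEP192 with the turn ran from 0.5524 to 0.9346.

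CEP250, which links the centrioles of a cell and has 7 probes, averaged 0.20 in female IS21FE, -0.29 in male IS21FE, -0.41 in female IS21SE and -0.58 in male IS21SE pools. Its replicates ran from -1.43 to 0.72 in male IS21SE pools alone, and its probes there from -1.63 to 1.00. The remaining CEP55, CEP68, CEP76, CEP120 and CEP350 reached an unadjusted p under 0.05 in no group. CEP55 acts mainly in the final cut of cell division, and CEP350 had the smallest within-group SD of the CEP genes, 0.126.

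The median within-group SD over replicates was 0.19 for IFT genes, 0.38 for CEP genes, 0.46 for DNAH genes, 0.46 for BBS genes and 0.97 for TEKT genes, against 0.35 for all genes. For genes chosen by symbol the median SD was 0.24 in female and 0.44 in male pools, against 0.28 and 0.32 for all genes. The fit gave a gene the same spread in all 4 groups, so unadjusted p-values and SEs of male pools can be too small. Several probes of a gene often disagreed: of the 11 genes chosen by symbol with several measured probes, all probes had 1 sign in 3 genes in male IS21SE pools and in 4 genes in male IS21FE pools. In female pools 6 of 12 such genes had 1 sign in IS21FE and 2 of 12 in IS21SE.

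The 5 added genes had some of the largest ratios, and most of these rested on few arrays or probes. GAS8, a subunit of the nexin-dynein regulatory complex that regulates beating, had 2.06, 2.31 and 2.82 in male IS21FE pools, all far above 0, with a mean of 2.40 ± 0.39 (SD, n = 3). Its single probe gave 2.61, -0.06 and 4.23 on the arrays with treated RNA in Cy5 and 1.52, 4.68 and 1.41 on those with control RNA in Cy5. The averages of the orientations were close, at 2.26 and 2.54, while single arrays ranged from -0.06 to 4.68, with 5 of 6 positive. GAS8 had -1.28, -0.23 and -0.31 in female IS21FE pools, all negative, with a mean of -0.61, against 0.36 as deposited. It had -0.17 and -0.12 in female IS21SE pools, and 0.69 and -0.24 in male IS21SE pools.

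HOOK1, which binds microtubules and is needed for sperm head shape in mice, has 3 probes. It had -1.28, -0.55 and -0.42 in female IS21FE pools and 0.61, 0.73 and 0.12 in male IS21FE pools, without overlap. In male pools its sign followed the dye. In male IS21FE pools it averaged -0.82 with treated RNA in Cy5 and 1.79 with control RNA in Cy5, and in male IS21SE pools -1.05 and 1.68.

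TTC21A, a relative of the IFT-A subunit TTC21B, had -0.91, -2.40 and -2.53 in female IS21SE pools, a mean of -1.95 ± 0.90 (SD, n = 3). A single probe carried it, with -2.93 against -0.18 for its other probe. On that probe the arrays with treated RNA in Cy5 gave -0.23, -0.52 and 0.25, while those with control RNA in Cy5 gave -2.48, -9.30 and -5.32, so nearly the whole ratio lies in 1 orientation. As deposited, the replicates of TTC21A were 0.30, 2.17 and 2.78 in female IS21SE pools, a mean of 1.75, so its sign turned with the treatment of the columns.

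TTC21B, an IFT-A subunit, had -1.01, -1.80 and -0.41 in male IS21SE pools, all negative, a mean of -1.07 ± 0.70 (SD, n = 3). Its orientations averaged -2.16 with treated RNA in Cy5 and 0.01 with control RNA in Cy5. IQCD, also a subunit of the nexin-dynein regulatory complex, had -1.15, 3.03 and 3.14 in male IS21SE pools, a mean of 1.67 ± 2.45 (SD, n = 3). Its lowest array there gave -3.52 and its highest 4.49, and the other groups had 1 or 2 measured replicates between -0.64 and 0.27.

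**Figure D4:**
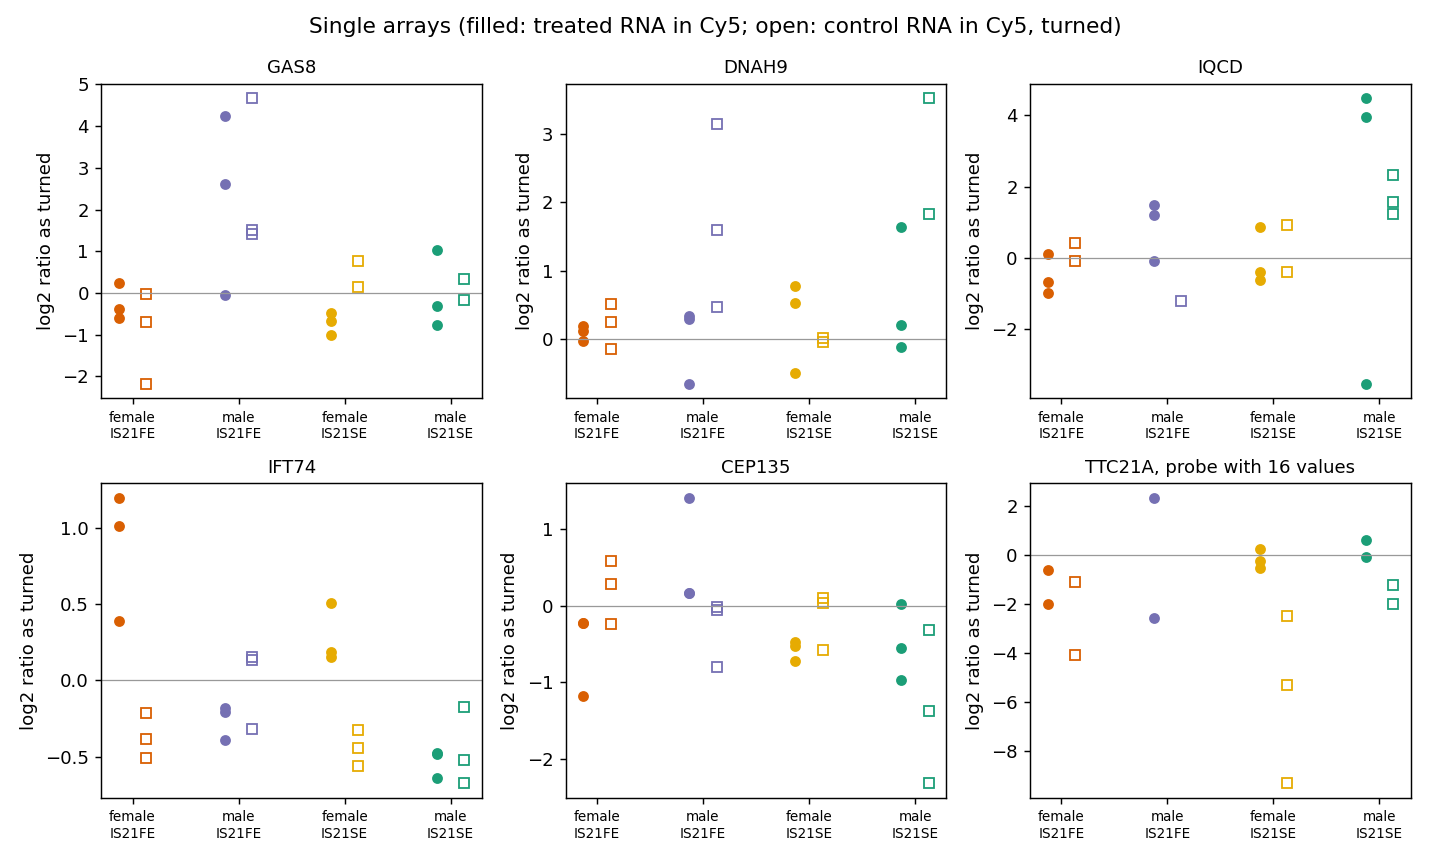
Log2 ratio as turned (vertical axes, each with its own range) on single arrays in the 4 groups (horizontal axis) for the single probes of GAS8, DNAH9, IQCD, IFT74 and CEP135 and for the TTC21A probe with 16 values. Filled points have treated RNA in Cy5 and open points control RNA in Cy5. In male IS21SE pools IFT74 is negative in both orientations, while the low TTC21A values of female IS21SE pools are all open points, down to -9.30.

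Across the genes chosen by symbol, 11 of 33 tested in male IS21SE pools reached an unadjusted p under 0.05 (8 negative, 3 positive), where 11.8% of all 10132 genes did. Their median was -0.11. In female IS21FE pools 6 of 32 reached it (5 positive, 1 negative), against 8.51% of all genes (5% positive, 3.51% negative), and their median was 0.09. In male IS21FE pools it was 2 of 31, against 6.74%, and in female IS21SE pools 2 of 35, against 5.35%, so in these 2 groups the share was near that of all genes. No member passed the adjusted threshold in these 4 groups or in the 4 differences between them. At least 2 measured replicates were needed, which the members with many blanks could not meet.

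The signs over replicates were counted as well. Of 29 genes with 3 measured replicates in male IS21SE pools, 12 had 1 sign in all 3 (10 negative, 2 positive), where 37.4% of all genes did (18.3% negative, 19.1% positive). The counts were 11 of 27 in female IS21FE pools, against 35%, 10 of 30 in male IS21FE pools, against 22.3%, and 6 of 27 in female IS21SE pools, against 25.5%. The genes chosen by symbol never lay beyond 1 on a single side in all 3 replicates, which 0.093% of all genes did in male IS21FE pools and 0.089% in male IS21SE pools.

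Both dye orientations gave the same sign of the group mean for 23 of 38 genes chosen by symbol in female IS21FE pools, 16 of 37 in male IS21FE, 16 of 38 in female IS21SE and 19 of 38 in male IS21SE pools. Over all genes the shares were 47%, 45%, 39.9% and 53.4% in the same order of groups. Of the 11 genes at an unadjusted p under 0.05 in male IS21SE pools, 10 had 1 sign in both orientations, with CEP164 as the exception, which is near the 87.2% of all genes at that level. In female IS21FE pools it was 4 of 6, against 85.5%.

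**Figure D5:**
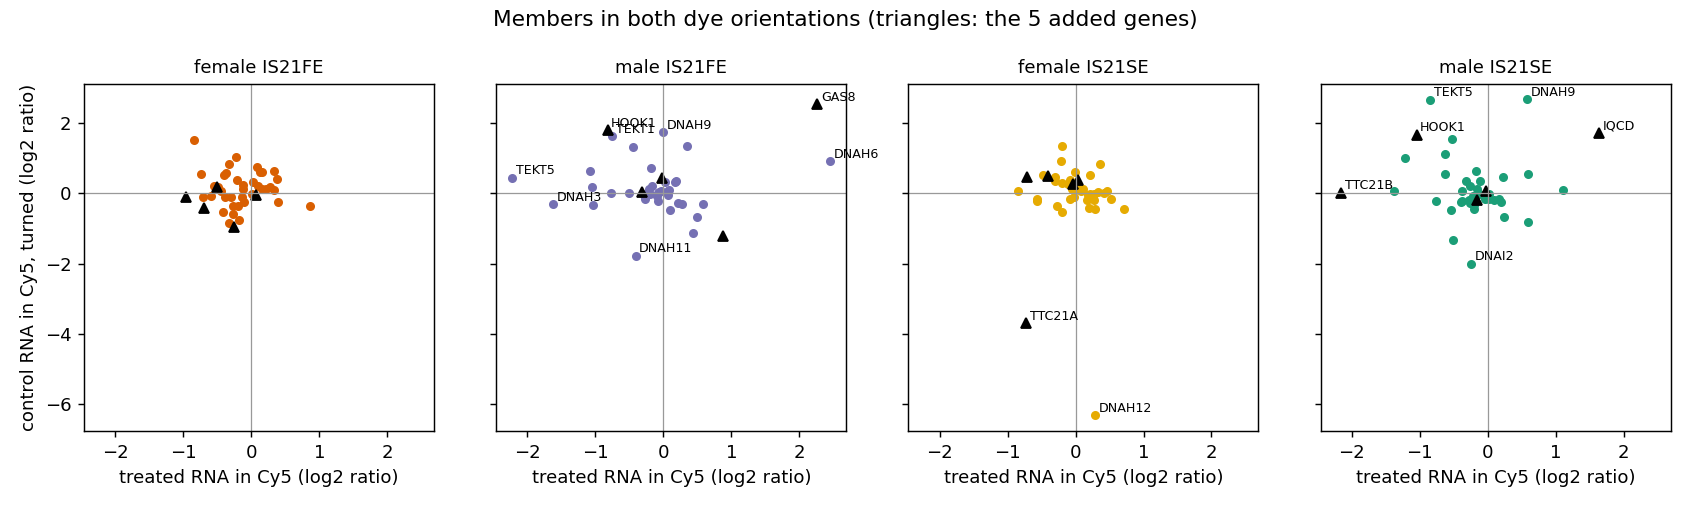
Mean log2 ratio of each gene over arrays with treated RNA in Cy5 (horizontal axis) and over arrays with control RNA in Cy5, turned (vertical axis), with a panel for each group and triangles for the 5 added genes. GAS8 in male IS21FE pools lies high on both axes (2.26 and 2.54), whereas HOOK1 in both male groups lies low on the first and high on the second.

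Differences between the sexes and strategies gave from 0 to 7 members at an unadjusted p under 0.05 (limma), and none past the adjusted threshold. At an unadjusted p under 0.05 there were 2 of 29 for IS21FE female minus male, against 6.27% of all genes, and 7 of 33 for IS21SE female minus male, against 8.03%. The 7 were CEP63, DNAH14, IFT74, IFT81 and IFT88, with positive differences from 0.36 to 0.41, and CEP164 and DNAH9, with -0.72 and -1.72. For female IS21FE minus IS21SE it was 0 of 31, against 2.93%, with 0 members past the adjusted threshold too. For male IS21FE minus IS21SE it was 5 of 30, against 7.74%, with CEP78 at 0.45 ± 0.19 (SE) beside CEP135, IFT74, IFT81 and IFT88. All 3 replicates of a group lay on the opposite side of 0 from all 3 of the other in 3 of 24 genes chosen by symbol for IS21FE female minus male, against 3.03% of all genes, and in 3 of 24 for IS21SE female minus male, against 5.05%. For female IS21FE minus IS21SE it was 0 of 22, against 1.3%, and for male IS21FE minus IS21SE 3 of 28, against 3.45%. The lowest adjusted p of a member in these differences was 0.4255 (limma).

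Other genes of the same structures were read from lists that do not overlap the 45 genes, and 0 passed the adjusted threshold. At an unadjusted p under 0.05, 6.29% of all genes were positive and 5.53% negative in male IS21SE pools, and 5% positive and 3.51% negative in female IS21FE pools. By sign alone, 4946 of all 10132 genes were positive and 5186 negative in male IS21SE pools. In female IS21FE pools 5465 of 9797 were positive and 4332 negative. In male IS21SE pools, transition zone genes, which form the gate at the base of the cilium, were 5 positive and 17 negative of 22, with a median of -0.12 and 0 at an unadjusted p under 0.05. Other centriole and centrosome genes were 13 positive and 25 negative of 38, with a median of -0.09, and 2 negative ones reached that level. Other transport and motor genes were 8 positive and 15 negative of 23, with a median of -0.03 and 1 positive at that level. Other axoneme and dynein assembly genes were 12 positive and 13 negative of 25, with a median of -0.02 and 2 negative at that level. In female IS21FE pools the transition zone genes were 17 positive and 4 negative of 21, with a median of 0.20, of which 2 positive ones reached that level. There the other centriole and centrosome genes were 26 positive and 11 negative of 37, with a median of 0.12 and with 6 positive and 1 negative at that level. The other axoneme and dynein assembly genes were 10 positive and 16 negative of 26, with a median of -0.04 and with 1 positive and 3 negative at that level. The other transport and motor genes were 13 positive and 10 negative of 23, with a median of 0.03 and 1 at that level in each direction.

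Among regulators and signalling genes, FOXJ1, the regulator of motile cilia, had 1.01, 0.24 and 0.64 in male IS21SE pools, all positive, with an adjusted p of 0.3519 (limma). It was measured in a single male IS21FE replicate, at -1.66. RFX3, a regulator of cilium genes, had 0.65, -1.05 and -0.66 in male IS21SE pools and -0.23, -0.37 and -0.35 in male IS21FE pools. KIF3A, a motor subunit that drives IFT-B outward, had -0.18, 0.05 and -0.30 in male IS21SE pools and 0.11, 0.44 and 0.23 in female IS21FE pools. DYNC2H1, the heavy chain of the returning motor, had -0.17, -0.52 and -0.46 in male IS21SE pools and -0.02, -0.62 and -0.28 in male IS21FE pools, negative in all 6. In female IS21SE pools DYNC2H1 had 0.31 and 0.98 in its 2 measured replicates, a mean of 0.65 with an unadjusted p of 0.02458 and an adjusted p of 0.9217 (limma). Its IS21SE difference, female minus male, was 1.03 ± 0.30 (SE) with an adjusted p of 0.5177 (limma). GLI1, a Hedgehog target, had 0.33, 0.06 and 0.05 in male IS21SE pools, all positive, and the Hedgehog list there was 9 positive and 4 negative of 13, with 1 positive at an unadjusted p under 0.05. PLK4, the kinase that starts centriole duplication, had -0.13, -0.20 and 0.0028 in male IS21SE pools and 0.60, -0.36 and 0.49 in female IS21FE pools.

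Marker genes of tissues were read beside these values as ratios, since levels are not in the files. Of all 10132 genes tested in male IS21SE pools, 4946 were positive and 5186 negative. In male IS21SE pools the ratios of liver markers were 8 positive and 1 negative of 9, with a median of 0.30 and replicate medians from 0.07 to 0.46, and 2 reached an unadjusted p under 0.05. Ciliated epithelium markers were 5 positive and 1 negative of 6, with replicate medians from 0.11 to 0.27. Neural progenitor markers were 1 positive and 5 negative of 6, with replicate medians from -0.15 to -0.09. Blood markers were 3 positive and 3 negative of 6, with replicate medians from -0.15 to 0.37. The IFT replicate medians ran there from -0.32 to -0.20. The part of tissue make-up in the male IS21SE ratios was not tested.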

How the data were processed

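The deposited table holds the authors' log2 ratios of the channels for 43749 probes on 24 two-colour arrays; the base was taken from the range of the values. How the authors normalized and filtered is not given in the sources used here. Per the labels' protocols, 200 ng of total RNA was labelled. Symbols came from the platform annotation and were brought up to date with RefSeq tables. No sequence or coordinate was used. Arrays with control RNA in Cy5 were multiplied by -1, the mean of a replicate's 2 arrays was taken if both had a value, and a gene took the mean of its probes. The 4 group means were fitted to 12 replicates with limma 3.58.1 in R 4.3.3 (eBayes, no trend). A gene was tested if each compared group had 2 or more measured replicates, with Benjamini-Hochberg adjustment over all genes tested at a threshold of 0.05. The fit was also run on simulated data with independent normal noise and added shifts. These held no dye effect, shared sows or sex difference in spread, so that run cannot test the fit for them. P-values and SEs rest on the spread between replicates, each a treated pool of 3 embryos set against a control pool. A gene had 1 estimate of that spread for all 4 groups, so a p-value of male pools also drew on female replicates. With 3 sows per strategy for 3 female and 3 male pools, pools of a strategy must share sows, and the fit took all pools as independent. The p-values and SEs of the sex differences do not allow for this. Named were the 5 added genes, members at an unadjusted p under 0.05 in a group, the member of each family with most probes, and fixed regulators; other members are named as counts or values chosen after they were seen. Members and lists were chosen with earlier results of these data known. Deviations of same-numbered female and male pools correlated with r from 0.051 to 0.195 for IS21FE, against -0.15 to 0.094 for different numbers, and from -0.039 to 0.064 for IS21SE, against -0.093 to 0.079, across 6526 genes. The labels tie no numbers across the sexes and not every pair passed 0.1, so numbers were not used as pairs in the main fit. The same-numbered IS21FE values were all above 0, and only the replicate block took numbers into account. Alternatives covered the turn, dye orientation, scaling, filters, probe choice, array weights and left-out replicates.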

Additional observations from a re-analysis of the deposited data

Results flagged for a closer look

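In 11 cases all 3 replicates of a group lay on the opposite side of 0 from all 3 replicates of the group it was set against. These include the added genes GAS8 and HOOK1, which were chosen partly for their ratios. Only the genes chosen by symbol are therefore set against the shares of all genes. Such opposite sides occurred for 3.03% of all genes for IS21FE female minus male, 5.05% for IS21SE female minus male, 3.45% for male IS21FE minus IS21SE and 1.3% for female IS21FE minus IS21SE.

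Under IS21FE, female minus male, they were found in 3 of 24 genes chosen by symbol. The difference was 0.51 ± 0.24 (SE) for CEP152, with means of 0.13 in female and -0.38 in male pools. On the only CEP152 probe with a value on every array the means were 0.16 in female and 0.13 in male pools, on the same side. It was -0.47 ± 0.15 (SE) for CEP164, with -0.34 in female and 0.13 in male pools, and 0.38 ± 0.15 (SE) for IFT74, with 0.25 in female and -0.13 in male pools. Their adjusted p lay between 0.7862 and 0.8002 (limma). On the only CEP164 probe with a value on every array the female replicates were -0.61, 0.02 and 0.10, on both sides of 0. The added genes GAS8, with a difference of -3.01, and HOOK1, with -1.23, did the same, and these differences were not tested. The female ratio of IFT74 has the opposite sign on arrays with control RNA in Cy5, at -0.37, and the HOOK1 sign follows the dye in males. As deposited, the female mean had the other sign for CEP152 (-0.16), CEP164 (0.02) and GAS8 (0.36). The male mean then had the other sign for GAS8 (-0.14) and HOOK1 (-1.31), while CEP152, CEP164 and IFT74 kept theirs.

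Under IS21SE, female minus male, 3 of 24 genes did so. The difference was -0.72 ± 0.15 (SE) for CEP164, with -0.28 in female and 0.44 in male pools, 0.40 ± 0.17 (SE) for CEP63, with 0.08 and -0.32, and 0.36 ± 0.14 (SE) for DNAH14, with 0.09 and -0.27, in the same order of groups. Their adjusted p lay between 0.4438 and 0.6054 (limma). On the only CEP164 probe with a value on every array the means were -0.16 in female and -0.18 in male pools, on the same side. As deposited, the female mean had the other sign for CEP164 (0.09), CEP63 (-0.19) and DNAH14 (-0.02). The deposited male means were -0.61, -0.08 and 0.01 in the same order of genes.

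For male IS21FE minus IS21SE, 3 of 28 genes did so. The difference was 1.06 ± 0.28 (SE) for CEP135, with 0.14 in IS21FE and -0.92 in IS21SE pools, 0.47 ± 0.17 (SE) for IFT81, with 0.17 and -0.30, and 0.58 ± 0.17 (SE) for IFT88, with 0.25 and -0.33, in the same order of groups. Their adjusted p lay between 0.4255 and 0.5643 (limma). The male IS21FE mean of CEP135 was 0.58 with treated RNA in Cy5 and -0.29 with control RNA in Cy5, so its sign followed the dye. As deposited, CEP135, IFT81 and IFT88 averaged 0.43, -0.14 and -0.08 in male IS21FE pools. In male IS21SE pools they averaged 0.42, -0.08 and 0.12. For female IS21FE minus IS21SE it was 0 of 22 genes.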

How the results depend on the processing

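With the turn, no gene passed the adjusted threshold and 6, 2, 2 and 11 genes chosen by symbol were at an unadjusted p under 0.05 in the female and male IS21FE and the female and male IS21SE pools, with 2 and 7 for IS21FE and IS21SE female minus male and 0 and 5 for female and male IS21FE minus IS21SE. Scaling each array, centring it or keeping genes with 1 measured replicate changed no direction and no count by over 1.5 times. The 7 negative IFT genes of male IS21SE pools were also 7 with a dye term, scaling and centring, and 5 with no turn. Of the 5 at an unadjusted p under 0.05, 1 was left in a fit to that group alone, 2 with the replicate block, 2 without 3 resembling female arrays, 0 with no turn, and 1 to 3 without 1 of the 3 replicates. The number of replicates and the blank values limit these results, and signal over background was not used here. Signs below were followed only in genes at an unadjusted p under 0.05 in that group with the turn (limma). The gene of each family with most probes was followed in all 4 groups. The cause of the changes below was not tested.

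With no array turned, genes past the adjusted threshold numbered 576 in female IS21FE, 374 in female IS21SE, 2 in male IS21SE, 37 for IS21SE female minus male and 2 for male IS21FE minus IS21SE. Members at an unadjusted p under 0.05 then numbered 4 in male IS21FE, 5 in female IS21SE, 2 in male IS21SE, 4 for IS21FE and 4 for IS21SE female minus male, and 1 and 3 for female and male IS21FE minus IS21SE. The sign turned in female IS21FE pools for BBS4 (0.0471), BBS9 (-0.0108), CEP164 (0.0242), CEP250 (-0.44), CEP63 (-0.22), CEP78 (-0.50), DNAH7 (0.16) and TEKT2 (0.11). In male IS21FE pools it turned for BBS4 (-1.43) and DNAH9 (-0.87). Counting all genes chosen by symbol, the sign turned for 15 of 31 in male IS21FE and 17 of 33 in male IS21SE pools. In male IS21FE pools these included IFT81 (-0.14), IFT88 (-0.0816) and CEP78 (-0.46). Among the followed genes of female IS21SE pools it turned for BBS4 (-1.12), CEP128 (-0.23), CEP164 (0.0919), DNAH7 (-0.0629), IFT52 (0.0174) and TEKT2 (0.34). Among those of male IS21SE pools it turned for BBS4 (-0.72), CEP135 (0.42), CEP164 (-0.61), DNAH14 (0.0114), DNAH7 (-0.0458), DNAH9 (-0.96), IFT80 (0.062) and IFT88 (0.12).

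With treated RNA in Cy5 only, 10 genes passed in male IS21FE, 5 in male IS21SE and 4 for male IS21FE minus IS21SE. Among these was TEKT5 in male IS21FE (-2.22, adjusted p 0.03553, limma). Members at an unadjusted p under 0.05 numbered 3 in female IS21FE, 4 in male IS21FE, 5 in male IS21SE, 5 and 1 for IS21FE and IS21SE female minus male, and 2 and 3 for female and male IS21FE minus IS21SE. The sign turned for CEP250 (-0.27) and CEP78 (-0.32) in female IS21FE, BBS4 (-1.08) and DNAH9 (-0.0037) in male IS21FE, BBS4 (-0.21) and TEKT2 (0.27) in female IS21SE, and BBS4 (-1.22) and CEP164 (-0.17) in male IS21SE pools. With control RNA in Cy5 only, 1 gene passed in male IS21FE, 1 for IS21FE female minus male and 1 for male IS21FE minus IS21SE. Members at that level numbered 4 in male IS21FE, 4 in female IS21SE, 6 in male IS21SE and 1 for female IS21FE minus IS21SE. The sign turned for BBS4 (0.19), CEP250 (-0.59) and IFT74 (-0.37) in female IS21FE, CEP250 (0.17) and DNAH7 (-0.66) in male IS21FE, and TEKT2 (0.54) in male IS21SE pools.

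With single arrays and a dye term, 1 gene passed in female IS21FE, 4 in male IS21SE and 1 for IS21FE female minus male. Members at that level numbered 4 in male IS21FE, 1 in female IS21SE and 4 for IS21SE female minus male. The sign turned for CEP250 in female IS21FE (-0.43), BBS4 (-0.22) and DNAH7 (-0.0845) in male IS21FE, and BBS4 in male IS21SE pools (-0.11). Keeping replicates with 1 measured array, an alternative chosen after seeing the data, gave 3 genes past the threshold in male IS21FE and 1 for male IS21FE minus IS21SE. Members at that level were 3 in female IS21FE, 5 in male IS21FE, 1 in female IS21SE and 3 for IS21SE female minus male. The sign turned for CEP250 in female IS21FE (-0.53), BBS4 (-0.68) and DNAH7 (-0.28) in male IS21FE, TEKT2 in female IS21SE (0.0319) and BBS4 in male IS21SE pools (-0.0445).

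With the most measured probe of a gene, the sign turned for DNAH7 in female IS21FE (0.049), BBS4 (-0.38) and CEP250 (0.25) in male IS21FE, CEP250 (0.32) and IFT52 (0.0549) in female IS21SE, and CEP164 in male IS21SE pools (-0.18). With array weights, members at that level numbered 10 in female IS21FE, 1 in male IS21FE, 7 for IS21FE female minus male and 2 for female IS21FE minus IS21SE, and the sign turned for IFT52 in female IS21FE (0.0076) and TEKT2 in male IS21SE pools (0.0644). In a fit to the compared groups alone they numbered 2 in female IS21FE, 0 in male IS21FE, 5 in male IS21SE and 1 for female IS21FE minus IS21SE. With all 3 replicates measured there was 1 for female IS21FE minus IS21SE. In 3 female arrays with treated RNA in Cy5 (IS21FE replicates 1 and 3, IS21SE replicate 2), rho was 0.559 to 0.614 with each other. Without them members at that level numbered 2 in female IS21FE, 0 in female IS21SE, 7 in male IS21SE, and 1 and 3 for female and male IS21FE minus IS21SE, and the sign turned in female IS21FE pools for BBS4 (0.17), CEP250 (-0.45) and IFT74 (-0.13).

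With the replicate block, members at that level numbered 4 in male IS21FE, 1 in female IS21SE, 4 for IS21FE female minus male and 2 for female IS21FE minus IS21SE, against 8 in male IS21SE pools, and 0 genes passed the adjusted threshold. The sign turned for DNAI2 (-0.091) and TEKT2 (0.42) in female IS21SE and TEKT2 in male IS21SE pools (0.32), and the replicate block changed no other direction among named genes.

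Leaving out 1 replicate gave 2 to 9 members at that level in female IS21FE, 2 to 4 in male IS21FE, 1 to 2 in female IS21SE and 5 to 9 in male IS21SE pools. It gave 1 to 5 for IS21FE and 2 to 7 for IS21SE female minus male, 0 to 3 for female and 3 to 6 for male IS21FE minus IS21SE. Genes past the adjusted threshold stayed at 0, except 3 in male IS21SE pools without replicate 1 or without replicate 3. The low of 2 in female IS21FE pools came without replicate 1 or without replicate 3, and the low of 5 in male IS21SE pools without replicate 2. The ratio ran from -0.52 to 0.12 for BBS4, -0.0889 to 0.37 for CEP250 and -0.19 to 0.0328 for IFT52 in female IS21FE pools. BBS4 ran from -0.21 to 0.75 in male IS21FE and from -0.35 to 0.88 in male IS21SE pools. CEP135 in male IS21SE pools ran from -1.31 to -0.66.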
